A study of Bos taurus with 16 samples.

Results

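PDE7A and PTGER2 encode parts of cyclic AMP (cAMP) signaling, a cAMP phosphodiesterase and a Gs-coupled receptor for prostaglandin E2 (PGE2). They were followed as 2 of the 19454 genes in a bovine RNA-Seq count table, by the identifiers ENSBTAG00000011614 for PDE7A and ENSBTAG00000002163 for PTGER2. Both were picked with their values in these libraries already known. The values that could have chosen them are therefore given as a description, without a test, and both genes passed the low-count filter in every comparison.

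The libraries came from superficial zone articular chondrocytes, the cells at the joint surface, of knees from calves 1 to 2 weeks old. All cells were infected with lentivirus, selected for 5 days in 0.8 µg/ml puromycin and replated on low attachment plates for 48 hours in DMEM/F12 medium with serum. The groups were shScramble, a control shRNA, or shCreb5, a single shRNA against the transcription factor Creb5, each with TGFα at 100 ng/ml (condition A) or with TGFα at 100 ng/ml and TGFβ2 at 20 ng/ml (condition AB). TGFα, an EGFR ligand, was thus present in all 4 groups, and no group was without it. Each group held 1 library from each of 4 calves, 16 libraries in all. A second shRNA against Creb5 was not analysed here, so an effect of the Creb5 knockdown and an effect of this one shRNA sequence cannot be told apart.

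PGE2 is made from arachidonic acid by cyclooxygenases and PGE synthases and acts on several kinds of receptor. The receptor encoded by PTGER2, known as EP2, couples to Gs and raises cAMP through adenylyl cyclase. PDE7A encodes an enzyme that breaks cAMP down to AMP, so receptor and phosphodiesterase stand on opposite sides of the cAMP pool. Raised cAMP activates protein kinase A and Epac, and protein kinase A phosphorylates transcription factors of the CREB family. In cartilage, PGE2 is known as a mediator that chondrocytes make under inflammatory and mechanical stimulation.

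The libraries held 14710867 to 21853634 counts, with a median of 19721435. Levels are in CPM, the share of a library's counts that fell on a gene, after scaling by TMM factors between 0.842 and 1.23. CREB5 itself, the target of the shRNA, had less RNA in the shCreb5 library of every calf. Condition A had 94.5 ± 24.3 CPM with shScramble and 65.3 ± 17.9 CPM with shCreb5 (SD, n = 4), and condition AB had 70.9 ± 11.8 and 36.3 ± 4.97 CPM. The fitted log2 changes were -0.54 (SE 0.08) in condition A, where the groups overlapped, and -0.96 (SE 0.10) in condition AB, where they did not, as for 0.766% of all genes lower there. By edgeR's quasi-likelihood test neither reached the threshold, with adjusted p-values of 0.337 and 0.124, whereas DESeq2 called CREB5 in both conditions. Of the chondrocyte markers listed, COL11A1 and CHAD could be matched, and their summed level was between 901 and 15089 CPM. Nearly all of it was COL11A1, at 898 to 14992 CPM, while CHAD was at 1.99 to 97.0 CPM. COL2A1, ACAN and SOX9 were not matched to an identifier and were not analysed here.

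PDE7A was lower with shCreb5 than with shScramble in each calf and in both conditions. In condition A, its level in calves 1 to 4 was 34.6, 17.3, 37.6 and 23.0 CPM with shScramble and 20.8, 12.7, 22.9 and 12.6 CPM with shCreb5, from 269 to 862 counts per library. Every calf was lower with shCreb5, but the groups overlapped, because calf 2 with shScramble was below calves 1 and 3 with shCreb5. In condition AB, PDE7A was at 20.8, 18.0, 30.2 and 26.8 CPM with shScramble and at 14.8, 13.3, 21.7 and 13.0 CPM with shCreb5. Again all 4 calves were lower and the groups overlapped, here only through calf 3 with shCreb5.

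The log2 fold change of PDE7A with shCreb5 was -0.70 (SE 0.10) in condition A, a level 38.2% lower. The 4 calves gave -0.73, -0.45, -0.71 and -0.87. In condition AB the log2 fold change was -0.61 (SE 0.13), a level 34.4% lower. There calves 1 to 3 gave -0.48, -0.44 and -0.47, and calf 4 gave -1.03. Without calf 4 the fit for condition AB gave -0.47. Counting error on the log2 ratio of a single calf was 0.08 to 0.12 without TGFβ2 and 0.10 to 0.12 with it, less than every one of these ratios.

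Among the genes tested, 8.5% were lower in 4 of 4 calves with shCreb5 in condition A and 9.17% in condition AB. PDE7A was lower in 8 of 8 pairs of libraries over both conditions, as were 218 of 13372 genes, or 1.63%. It was chosen with these values known, so the shares describe the table and are no test of PDE7A.

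TGFβ2 had no common direction for PDE7A. With shScramble the level went from 28.1 ± 9.56 CPM (SD, n = 4) in condition A to 24.0 ± 5.55 CPM in condition AB, with log2 ratios of -0.73, 0.06, -0.31 and 0.21 in calves 1 to 4 and a fitted change of -0.20 (SE 0.16). With shCreb5 it went from 17.2 ± 5.39 to 15.7 ± 4.09 CPM, with ratios of -0.49, 0.07, -0.07 and 0.05 and a fitted change of -0.12 (SE 0.12). With either shRNA 2 calves were higher and 2 lower, the groups overlapped, and calf 1 had the lowest ratio. Without calf 1 the fitted changes were -0.019 and 0.0045, and with library totals in place of TMM they were -0.37 and -0.28, where the median of all genes was -0.18 and -0.17. The difference between the knockdown effects of the conditions, AB minus A, was 0.08 (SE 0.22) for PDE7A, with 3 calves above zero and 1 below.

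PTGER2 followed another pattern, in which the 4 libraries with shCreb5 and no TGFβ2 were the low ones. In condition A its level in calves 1 to 4 was 8.63, 8.23, 18.4 and 14.6 CPM with shScramble and 6.53, 5.97, 8.54 and 7.45 CPM with shCreb5. All 4 calves were lower with shCreb5, and the groups overlapped only because calf 2 with shScramble was just below calf 3 with shCreb5. In condition AB the levels were 9.36, 9.07, 14.6 and 11.5 CPM with shScramble and 13.4, 9.67, 19.9 and 9.59 CPM with shCreb5. Calves 1, 2 and 3 were higher with shCreb5, calf 4 was lower, and the groups overlapped. PTGER2 rested on fewer counts than PDE7A, 127 to 352 per library.

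The log2 fold change of PTGER2 with shCreb5 was -0.74 (SE 0.16) in condition A, a level 40.2% lower, with -0.40, -0.45, -1.09 and -0.96 in calves 1 to 4. The value was -0.62 without calf 3 and -0.85 at the other end when a different calf was left out. In condition AB the fold change was 0.21 (SE 0.15), with 0.51, 0.09, 0.44 and -0.26 in the calves. Counting error on a single calf's log2 ratio was 0.12 to 0.17 over these comparisons, so the ratio of calf 2 in condition AB was within it.

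**Figure D1:**
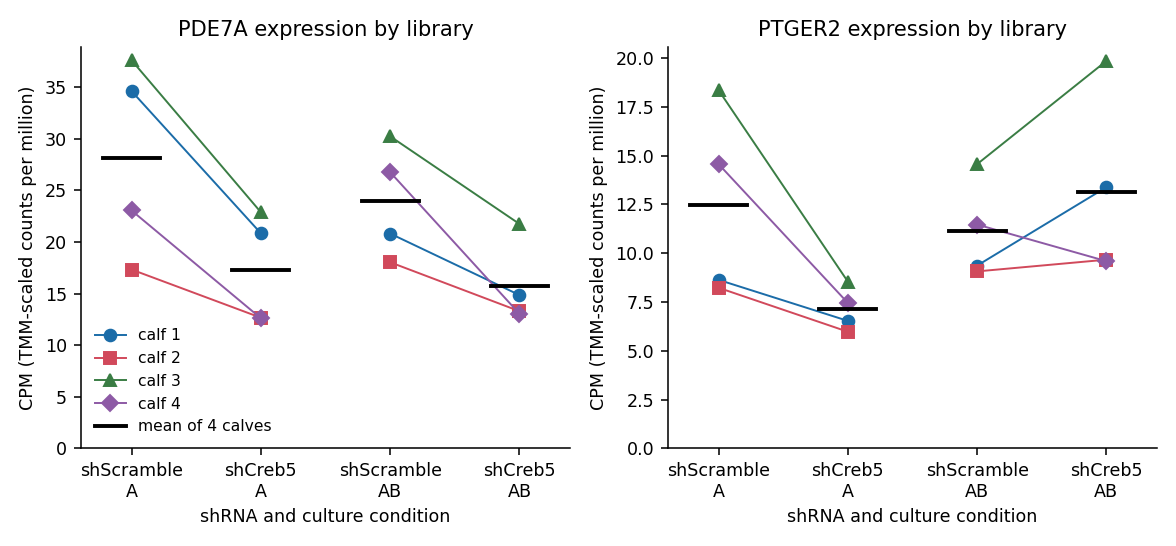
PDE7A and PTGER2 in each library, in CPM scaled with TMM factors, by group, with 1 symbol per calf and a bar for the mean of 4 calves. Lines join the shScramble and shCreb5 libraries of a calf within a condition. PDE7A is lower with shCreb5 in both conditions, while PTGER2 has its lowest mean in the shCreb5 libraries of condition A, at 5.97 to 8.54 CPM.

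With TGFβ2 the shCreb5 cells held more PTGER2 RNA than without it in every calf. The level was 7.13 ± 1.13 CPM (SD, n = 4) without TGFβ2 and 13.1 ± 4.82 CPM with it, and the groups did not overlap. The log2 fold change was 0.83 (SE 0.16), or 1.78-fold, with 1.02, 0.68, 1.21 and 0.36 in calves 1 to 4. Among genes tested in shCreb5 cells, 25.2% were higher in 4 of 4 calves and 6.29% were higher without overlap, so neither feature was rare in this comparison.

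In shScramble cells, PTGER2 was at 12.4 ± 4.89 CPM without TGFβ2 and 11.1 ± 2.53 CPM with it. The ratios of the calves were 0.12, 0.14, -0.33 and -0.34, and the fitted change was -0.11 (SE 0.14), or -0.29 with library totals, with overlapping groups. Calves 1 and 2 were thus slightly higher and calves 3 and 4 lower.

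The difference of the knockdown effects, AB minus A, was 0.97 (SE 0.23) on the log2 scale for PTGER2, with 0.91, 0.55, 1.54 and 0.70 in the calves. All 4 calves were above zero, as were 9.82% of the 13372 genes tested for this difference. The knockdown effect in condition A, the TGFβ2 effect in shCreb5 cells and this difference all use the same 4 shCreb5 libraries of condition A, so they are not separate observations of PTGER2.

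**Figure D2:**
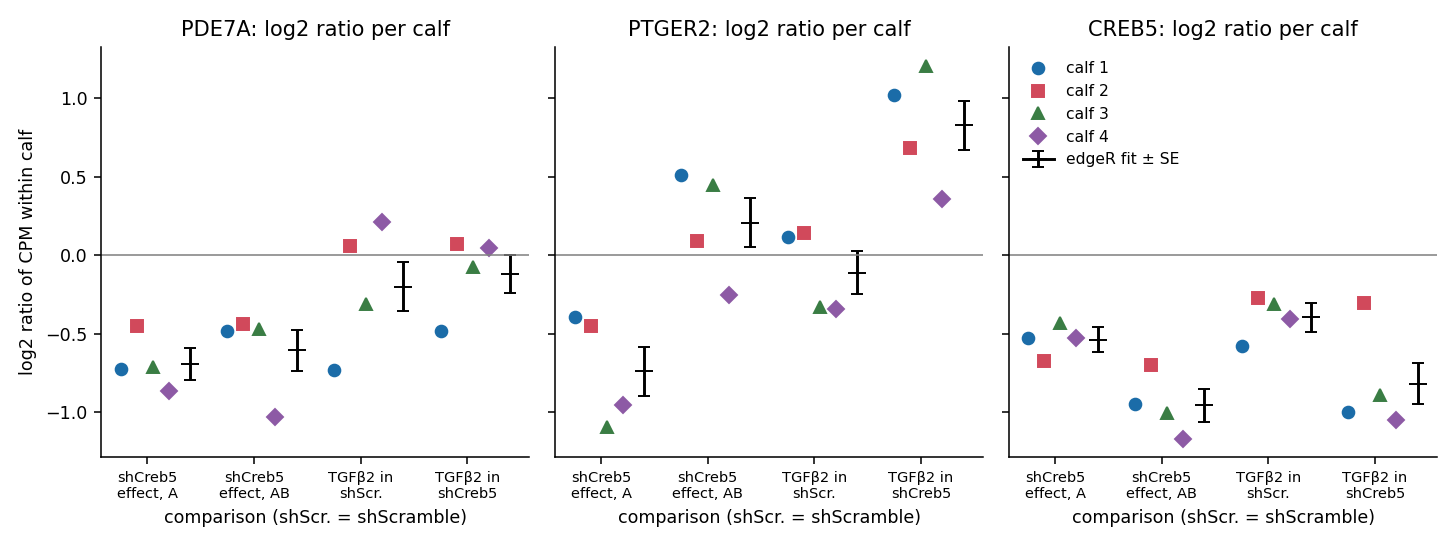
Log2 ratio of CPM within each calf for PDE7A, PTGER2 and CREB5 in 4 comparisons (shCreb5 effect is shCreb5 over shScramble), with the edgeR log2 fold change ± SE beside the 4 calves. PDE7A lies below zero in both knockdown comparisons, and PTGER2 lies below zero in condition A and above zero in the TGFβ2 comparison of shCreb5 cells, where it is between 0.36 and 1.21.

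In order of mean level, PDE7A was highest in shScramble condition A, then shScramble condition AB, shCreb5 condition A and shCreb5 condition AB, and the ranges of each pair of neighbours overlapped. For PTGER2 the order was shCreb5 condition AB, shScramble condition A, shScramble condition AB and shCreb5 condition A. The first 3 of these groups overlapped one another, and shCreb5 condition A was below both groups with TGFβ2 in every library.

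The calf was a large part of the level of both genes. Calf 3 had the highest CPM in all 4 groups for PDE7A and for PTGER2. The highest calf was 1.67 to 2.17 times the lowest within a group for PDE7A and 1.43 to 2.23 times for PTGER2. A knockdown difference of the size seen here was therefore within the range of the calves, and it was visible in the ratio within a calf. The cells of a calf served all 4 groups.

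The 2 genes could also be set against each other within a library, which needs no scaling between libraries. The ratio of PTGER2 counts to PDE7A counts was 0.249 to 0.632 with shScramble in condition A and 0.313 to 0.591 with shCreb5 in that condition. With shScramble in condition AB it was 0.429 to 0.503. With shCreb5 in condition AB it was 0.728 to 0.913. These 4 libraries were above the other 12. The ratio was formed after the levels had been seen, and its absolute size depends on the lengths of the transcripts, so only its change between libraries can be read.

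Bulk RNA does not tell fewer cells of a type from less RNA per cell, and this holds for each value here. Summed levels of the leukocyte markers CD14 and CD68 were 22.7 to 41.7 CPM with shScramble and 24.0 to 92.7 CPM with shCreb5 in condition A, and 14.6 to 34.2 and 12.2 to 30.4 CPM in condition AB. The endothelial markers VWF and TEK summed to 8.25 to 14.7, 11.1 to 23.6, 8.85 to 11.2 and 6.70 to 10.2 CPM in the same order of groups. The fibroblast and mural markers THY1 and PDGFRB summed to 45.9 to 163, 43.8 to 343, 72.4 to 259 and 55.6 to 562 CPM. Each of these lists had 2 genes with an identifier, of 7, 5 and 6 listed, and none of those was at 0 in any library. The part of other cell types in the PDE7A and PTGER2 levels was not tested.

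For the rest of the pathway, 105 genes of cAMP and PGE2 signaling were listed, and 32 of them, PDE7A and PTGER2 included, could be tied to an identifier. The pairing of names and identifiers came from lines at the top of the study's tables, sorted by significance of the knockdown. The 30 other genes therefore favour small knockdown p-values and are not a fair sample of the pathway. No adenylyl cyclase, no other prostanoid receptor (PTGER1, PTGER3 and PTGER4 included) and not PDE7B, the closest relative of PDE7A, were among them.

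By edgeR no gene was called for the knockdown, on the pathway list or off it. Of the list genes other than PDE7A and PTGER2, 0 of the 28 tested passed in condition A and 0 of 28 in condition AB. This was edgeR's quasi-likelihood test with Benjamini-Hochberg adjustment over all genes, and of all genes 0% were called in either condition. CREB5, the target of the shRNA, was among these list genes, so its fall enters the counts and medians of the list. At an unadjusted p under 0.05 there were 11 of 28 in condition A and 9 of 28 in condition AB, CREB5 in both. The shares of all genes were 8.85% and 8.51%. DESeq2 called PDE3A and CREB5 in condition A and CREB5 in condition AB, beside 0.631% and 0.417% of all genes. The median log2 fold change of the list was -0.20 and -0.16 in the 2 conditions, where the median of all genes was near zero. Names on the list came from tables sorted by knockdown significance in these same libraries. These counts and medians therefore describe the list and are not set against the background as a result.

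PGE2 synthesis was represented by both cyclooxygenases. PTGS2, the inducible one, was lower in 4 of 4 calves with shCreb5 in condition A, at 28.5 ± 6.60 against 47.8 ± 20.0 CPM (SD, n = 4), with a log2 fold change of -0.69 (SE 0.18) and an adjusted p of 0.509. In condition AB it was lower in 2 calves and higher in 2, with -0.18. PTGS1, the constitutive one, gave -0.21 in condition A and -0.36 in condition AB. PTGES, a PGE synthase, gave -0.16 and -0.44, and HPGD, which inactivates PGE2, gave -0.91 (SE 0.31, adjusted p = 0.584) in condition AB and was below the count filter in condition A. None of these values passed the test, and HPGD was at low mean levels in condition AB, 1.48 CPM with shScramble and 0.806 CPM with shCreb5.

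Among G proteins, phosphodiesterases and factors downstream of cAMP, the values shared in sign by all 4 calves in condition A included PDE1B, a calcium-dependent phosphodiesterase, with a log2 fold change of 1.22 (SE 0.34). PDE3A, a cGMP-inhibited cAMP phosphodiesterase, had -0.95 (SE 0.17), the cAMP-responsive factor CREM -0.82 (SE 0.21) and the protein kinase A anchor AKAP5 -0.78 (SE 0.24). Their adjusted p-values by edgeR were 0.444 to 0.523. PDE1B and AKAP5 were at low mean levels, 0.73 and 2.75 CPM with shScramble and 1.77 and 1.60 CPM with shCreb5. GNAI3, an inhibitory G protein subunit, was higher in 4 of 4 calves by only 0.04. Of all genes tested, 9.75% were higher in every calf in this condition.

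In condition AB the corresponding values were 1.02 (SE 0.33) for PDE4C, a cAMP-specific phosphodiesterase, 0.41 (SE 0.20) for AKAP5 and 0.33 (SE 0.11) for GNAI3. The phosphatase gene DUSP1 had -0.69 (SE 0.20), beside HPGD above. The adjusted p-values were 0.584 to 0.605, and 9.28% of all genes were higher in every calf here. AKAP5 thus had a negative fold change in condition A and a positive one in condition AB, like PTGER2, and no gene of the list passed the test of the difference between the conditions. That test called 0 of 13372 genes, and 571 of them (4.27%) had an unadjusted p under 0.05. These included 6 of the 29 list genes tested, CREB5 among them. The list favours small knockdown p-values, so that count is not set against the share of all genes. DESeq2 called 10 genes of the whole table (0.0514%) and none of the list.

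**Figure D3:**
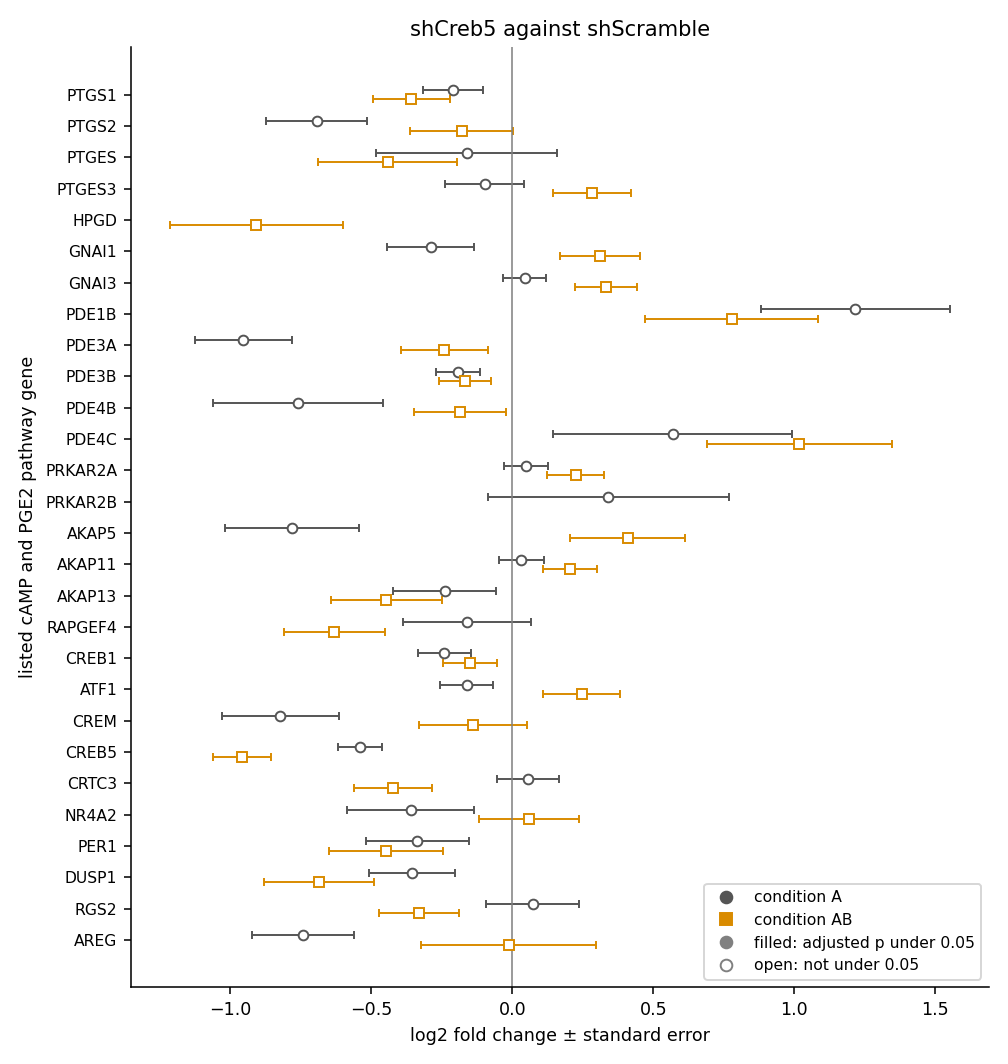
Log2 fold change ± SE of shCreb5 over shScramble for listed cAMP and PGE2 pathway genes other than PDE7A and PTGER2, in conditions A and AB, grouped by role. All symbols are open (adjusted p not under 0.05), PDE1B lies to the right at 1.22 in condition A, and AKAP5 lies on opposite sides of zero at -0.78 and 0.41.

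TGFβ2 changed many of the same 30 genes. In shScramble cells 12 of 29 tested were called, 6 higher and 6 lower, where 19.8% of all genes were called, 10.7% higher and 9.15% lower. In shCreb5 cells 12 of 29 were called as well, 6 in each direction, beside 30.4% of all genes, 15.9% higher and 14.5% lower. The names at hand came from knockdown tables of these same libraries, so the counts describe the list and are not set against the background as a result. The median log2 fold change of the list was -0.07 and 0.08.

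Both cyclooxygenase genes rose with TGFβ2, and the changes below are on the log2 scale. PTGS2 went from 47.8 ± 20.0 to 117 ± 38.8 CPM in shScramble cells, a log2 fold change of 1.32 (SE 0.27, adjusted p = 0.0119), and from 28.5 ± 6.60 to 99.6 ± 17.0 CPM in shCreb5 cells, 1.81 (SE 0.16, adjusted p = 0.000498). PTGS1 rose by 0.47 (adjusted p = 0.0309) and 0.32 (adjusted p = 0.0306). PTGES did not follow, with -0.12 (adjusted p = 0.689) in shScramble cells but fell in shCreb5 cells, with -0.41 (adjusted p = 0.0335). HPGD rose in shScramble cells by 1.98 (SE 0.55, adjusted p = 0.0376) from very low levels and had 2.30 (SE 0.78, adjusted p = 0.0583) in shCreb5 cells, which did not pass. The calls of PTGS1 were lost without any 1 of the calves (adjusted p = 0.0518 to 0.122 in shScramble and 0.0577 to 0.1 in shCreb5 cells) and with library totals in place of TMM (0.0934 and 0.228). HPGD was also lost without any 1 calf (0.055 to 0.0775), PTGES without calf 2, 3 or 4 (0.0766 to 0.128) and in the fit of all 16 libraries (0.423). The PTGS2 call in shScramble cells was lost without calf 4 (1.16, adjusted p = 0.0562), and that in shCreb5 cells remained with each calf left out.

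Of the phosphodiesterases, PDE1B rose in both, by 1.87 (SE 0.26, adjusted p = 0.00244) in shScramble and by 1.45 (SE 0.20, adjusted p = 0.00243) in shCreb5 cells. Both rises started from low mean levels, 0.73 and 1.77 CPM. PDE3A fell in shScramble cells, with -0.94 (SE 0.14, adjusted p = 0.00356), and had -0.22 (adjusted p = 0.555) in shCreb5 cells. PDE4B, a cAMP-specific phosphodiesterase, rose in shCreb5 cells by 0.89 (SE 0.20, adjusted p = 0.0147) and had 0.31 (adjusted p = 0.263) in shScramble cells. The PDE4B call was lost without calf 1 or 4 (adjusted p = 0.0615 and 0.0635), and those of PDE1B and PDE3A remained with each calf left out. The difference between the shRNAs was not called for PDE3A or PDE4B, with adjusted p-values of at least 0.961 for every gene of the list. PDE7A, at -0.20 (SE 0.16) and -0.12 (SE 0.12), had a change of smaller size with either shRNA than these 3 genes. These 3 were named because they were called, but PDE3A in shCreb5 cells (SE 0.26) and PDE4B in shScramble cells (SE 0.18) were not. Of the listed phosphodiesterases not called, PDE3B had 0.15 in shScramble and 0.18 in shCreb5 cells. PDE4C had -1.23 (SE 0.59) and -0.78 (SE 0.46) in the same order, from low mean levels of 2.11 and 2.78 CPM.

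Downstream of cAMP, the regulatory subunit gene of protein kinase A PRKAR2B fell, with -1.89 (SE 0.42, adjusted p = 0.0173) in shScramble and -1.12 (SE 0.27, adjusted p = 0.0196) in shCreb5 cells. Both falls were at low levels, so they rest on few counts. The mean of PRKAR2B in shScramble cells was 1.11 CPM without TGFβ2 and 0.308 CPM with it. In shCreb5 cells with TGFβ2 the mean was 0.685 CPM. PRKAR2B was below the count filter in the knockdown comparison of condition AB. The Epac gene RAPGEF4 rose in shScramble cells by 1.07 (SE 0.27, adjusted p = 0.0284) but was higher in only 3 of 4 calves. It had 0.59 (adjusted p = 0.0761) in shCreb5 cells. AKAP13, another anchor protein, fell in shCreb5 cells with -0.33 (adjusted p = 0.0162) and had -0.12 (adjusted p = 0.531) in shScramble cells. GNAI1, an inhibitory G protein subunit, fell in shScramble cells with -1.10 (SE 0.13, adjusted p = 0.00131), also with each calf left out. In shCreb5 cells GNAI1 had -0.49 (SE 0.30, adjusted p = 0.247) and was lower in 3 of 4 calves. PRKAR2B was lost in shScramble cells without calf 3 (adjusted p = 0.0516) and in shCreb5 cells without calf 3 or 4 (0.0824 and 0.0917), by DESeq2 (0.0557) and in the fit of 16 libraries (0.0628). RAPGEF4 was lost without calf 3 or 4 (0.122 and 0.101), and AKAP13 without calf 1 or 3 (0.0656 and 0.0676).

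Among the transcription factors and responsive genes, the nuclear receptor gene NR4A2 rose by 0.74 (adjusted p = 0.0129) and 1.17 (adjusted p = 0.00132) in shScramble and shCreb5 cells. CREM rose in shCreb5 cells by 0.90 (SE 0.11, adjusted p = 0.00149) and had 0.23 (adjusted p = 0.25) in shScramble cells. CREB5 itself fell with TGFβ2, with -0.40 (adjusted p = 0.0195) in shScramble and -0.82 (adjusted p = 0.0036) in shCreb5 cells. DUSP1 fell with -0.46 (adjusted p = 0.0132) and -0.80 (adjusted p = 0.0027), and RGS2, a regulator of G protein signaling, with -0.36 (adjusted p = 0.0475) and -0.75 (adjusted p = 0.0423), the latter lower in 3 of 4 calves. Without calf 2 the NR4A2 call in shScramble cells was lost (adjusted p = 0.0571). The fit of all 16 libraries lost NR4A2, DUSP1 and RGS2 in shScramble cells, and DESeq2 and the fit without a filter also lost RGS2 there. The CREB5 call in shScramble cells was lost without any 1 calf (0.0557 to 0.0627), and that of DUSP1 there without calf 2, 3 or 4 (0.0502 to 0.0728). RGS2 was lost in shScramble cells without any 1 calf (0.0506 to 0.206) and in shCreb5 cells without calf 1, 2 or 4 (0.0606 to 0.161).

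**Figure D4:**
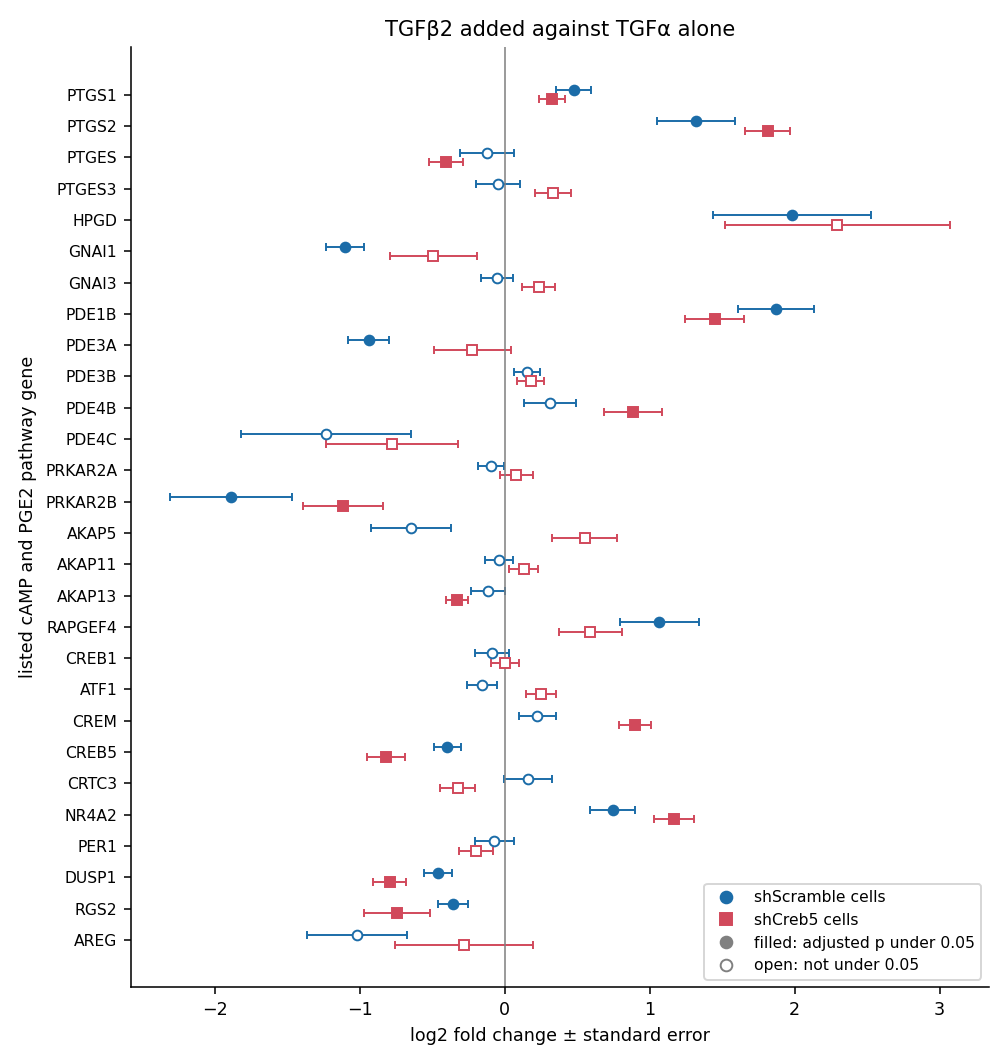
Log2 fold change ± SE of condition AB over condition A for listed cAMP and PGE2 pathway genes other than PDE7A and PTGER2, in shScramble and in shCreb5 cells, grouped by role. Filled symbols have an adjusted p under 0.05, as for PTGS2 and PDE1B, which rose with both shRNAs, and PRKAR2B, which fell with both.

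Likeness to each gene was measured as Pearson's r of log2 CPM over the 16 libraries, after the mean of each calf was subtracted, among 3114 other genes with a symbol. The symbols came from lines at the top of tables sorted by knockdown significance, so this pool favours genes with small knockdown p-values. Points of 1 calf share their cells, and libraries of 1 group share their treatment, so r is a description. The genes most like PDE7A were LONRF1 (r = 0.920), MPZL1 (0.918), ZNF740 (0.909), DENND2B (0.904) and TMTC2 (0.862). CREB5 had an r of 0.796 with PDE7A. The fold changes of these 5 genes with shCreb5 were -0.21 to -0.85 over both conditions, and their sign follows from the choice of genes by likeness over the same libraries.

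The genes with a symbol most like PTGER2 were KLHL7 (r = 0.864), CREM (0.863), FBL (0.849), GRHL1 (0.837) and FAM207A (0.835). Among all 13371 genes they ranked 3, 4, 5, 7 and 8, and the genes at the ranks left out had no symbol at hand. For CREB5 the r with PTGER2 was -0.147, and PDE7A and PTGER2 had an r of 0.238 with each other. The fold changes of these 5 genes were -0.22 (FBL) to -1.71 (GRHL1) with shCreb5 in condition A and 0.37 to 1.40 with TGFβ2 in shCreb5 cells, signs that again follow from how the genes were chosen. CREM was the only one of them on the pathway list.

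**Figure D5:**
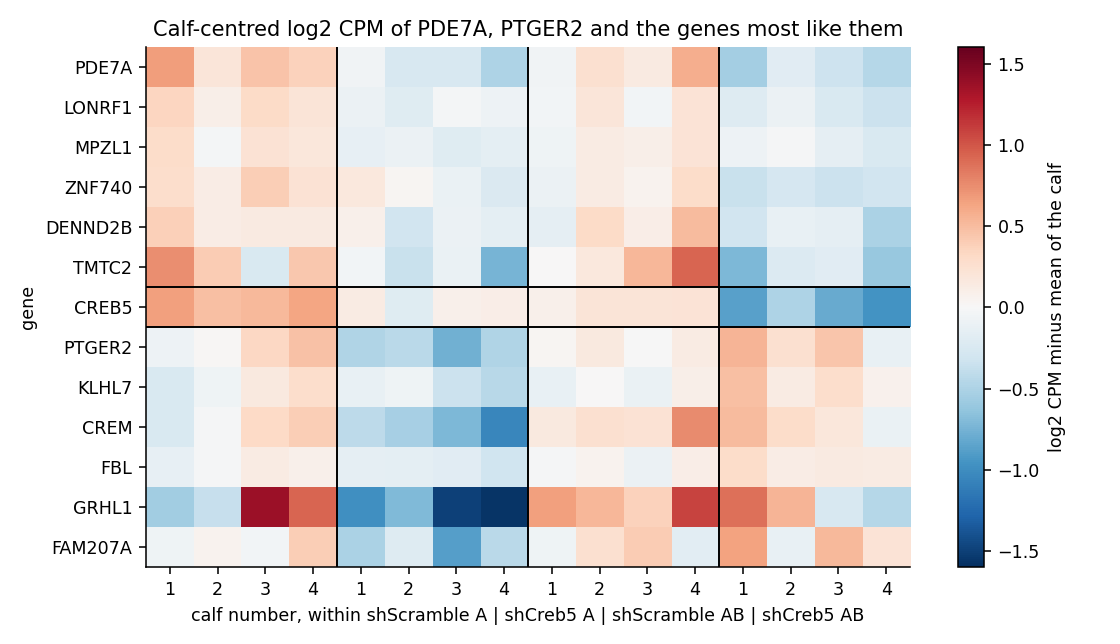
Calf-centred log2 CPM (colour) in the 16 libraries, ordered by group and calf, for PDE7A and the 5 genes most like it above CREB5, and for PTGER2 and the 5 genes most like it below. PDE7A is below its calf mean in all 8 shCreb5 libraries, CREB5 clearly so only in the shCreb5 libraries of condition AB, and PTGER2 and the 5 genes beneath it are below their calf means in the shCreb5 libraries of condition A, most of all GRHL1.

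Reads of overlapping genes cannot be kept apart with certainty in these counts. In the RefSeq annotation of another assembly, ARS-UCD2.0, the span of PDE7A overlaps MTFR1 and the uncharacterized loci LOC112449664 and LOC101902754, and the span of PTGER2 overlaps another, LOC132346327. Positions on the build used for the counts, and the sequences of the transcripts, were not used here.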

How the data were processed

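Single-end RNA-Seq reads of 16 libraries were quantified by the authors with Salmon against UMD 3.1 and summed to genes with tximport, and the deposited values are estimated counts per gene, whole and unscaled. All columns were mapped to a sample. The labels' replicate number is the calf, which the study used as a covariate. Deviations from group means had r of 0.132 to 0.837 between libraries of 1 calf (24 pairs, median 0.670) and a median of -0.234 between calves. No library was a copy of another.

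In R 4.3.3, edgeR 4.0.16 was run after filterByExpr and TMM, with the quasi-likelihood test, a block for the calf and p-values adjusted over all genes by Benjamini-Hochberg (called: adjusted p under 0.05), in the 8 libraries of a comparison or, for the difference of effects, all 16. The log2 CPM used a prior count of 2. SE comes from the fit and n is calves. Methods were tested on simulated data.

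PDE7A, PTGER2 and the lists were chosen with earlier results of these data known. Named were these genes, CREB5, the listed PGE2 genes, called list genes (up to 6 per direction with the smallest adjusted p), in the knockdown comparisons the 3 largest rises and falls with 1 direction in 4 of 4 calves, and the 5 genes most like each. A gene that this rule also names is counted but not reported here. Symbols were at hand for 3139 genes. Alternatives were RLE, no filter, at least 10 counts, DESeq2 1.42.0, limma-voom (limma 3.58.1), no block, all 16 libraries and each calf left out. Library totals without TMM factors were added after seeing the data.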

Additional observations from a re-analysis of the deposited data

Results flagged for a closer look

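In condition AB the log2 ratio of PDE7A, shCreb5 over shScramble, was -1.03 in calf 4, apart from the other 3 calves at -0.44 to -0.48. The gap to the nearest calf was 0.922 of the whole range, above Dixon's critical value for a set of 4. The ratios of PDE7A, PTGER2 and CREB5 and their levels gave 24 sets of 4 samples, of which chance would mark about 5%. PDE7A had 399 counts with shScramble and 212 with shCreb5 in calf 4, the latter its lowest count in the 16 libraries.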

How the results depend on the processing

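The log2 fold changes of PDE7A and PTGER2 kept their direction under every alternative in the knockdown comparisons. With each calf left out, PDE7A was -0.64 to -0.78 in condition A, with -0.47 to -0.65 in condition AB, and PTGER2 was -0.62 to -0.85 in condition A, 0.10 to 0.35 in condition AB and 0.69 to 0.98 for TGFβ2 in shCreb5 cells. Library totals without TMM factors moved the median of all genes by -0.18 and -0.17 in the TGFβ2 comparisons, and gave PDE7A -0.37 in shScramble and -0.28 in shCreb5 cells, and PTGER2 -0.29 and 0.66. Without the replicate block (the pairing by calf) the list genes called with TGFβ2 numbered 2 in shScramble cells (GNAI1, PDE1B) and 1 in shCreb5 cells (PTGS2), against 12 with it. With a calf left out they numbered 5 to 8 and 7 to 10. The fit of all 16 libraries gave 8 with either shRNA. It lost HPGD, NR4A2, DUSP1 and RGS2 in shScramble cells and PTGS1, PTGES, PRKAR2B and AKAP13 in shCreb5 cells. In the knockdown, where none was called, DESeq2 gave 2 in condition A, and DESeq2, no filter and the fit of 16 libraries gave 1 each in condition AB, CREB5. Leaving out calf 4 reversed a sign in 3 cases. With each calf left out, PTGES was -0.51 to 0.22 in the knockdown of condition A and -0.38 to 0.018 for TGFβ2 in shScramble cells, and PTGS2 was -0.30 to 0.054 in the knockdown of condition AB. Of the 24 calls named for TGFβ2, 9 held under every alternative except the fit without the block (GNAI1, PDE1B and PDE3A in shScramble and CREB5, CREM, DUSP1, NR4A2, PDE1B and PTGS2 in shCreb5 cells), and 15 did not. With 4 calves, one shRNA and 127 to 352 counts, changes in PTGER2 near its counting error of 0.12 to 0.17 cannot be resolved in a single calf.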
